A study of Canis lupus familiaris with 24 samples.

Results

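The comparison described here is the first induction step of a protocol for insulin-producing cells, definitive endoderm (DE) cells against undifferentiated cells on day 3. It takes the 8 day 3 samples among the 24 of the series, 4 samples labelled as DE cells and 4 labelled as undifferentiated controls, and all 7 genes that have values in them among the 26 genes of the tables. The cells were canine adipose-derived mesenchymal stem cells (cAD-MSCs), fibroblast-like cells grown from abdominal fat. The labels number 4 lines and the methods of the study give a different donor dog for each, so the control and the DE sample with the same line number are taken as a pair. Controls were labelled as normal cAD-MSCs grown in DMEM. DE cells were labelled as induced with Chir99021 and Activin A for 3 days, and the methods of the study give a serum-free medium with Chir99021 and sodium butyrate at first, followed by Activin A, insulin-transferrin-selenium and sodium butyrate, with the cells in floating clusters. Whether the day 3 controls were kept attached or floating, and with or without serum, is not settled by the sources used here. Expression was measured by RT-qPCR on RNA of whole cultures. A change in the share of cells that express a gene and a change in the amount per cell therefore cannot be told apart. The effects of Chir99021 and of Activin A, and those of any difference in medium or culture format, also cannot be told apart, because each group holds a single culture condition.

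Definitive endoderm is the germ layer that forms gut, liver and pancreas. In the embryo it arises from mesendoderm, a transient state that still can form mesoderm or endoderm, under Nodal signalling through the Activin receptors together with Wnt signalling. Activin A stands in for Nodal in culture, and Chir99021 activates the canonical Wnt pathway by inhibiting the kinase GSK3. The 7 genes fall into a mesendoderm list, with the homeobox factors *Mixl1* and *Gsc* (goosecoid) and the T-box factor *Eomes*, and a definitive endoderm list, with the zinc finger factors *Gata4* and *Gata6*, the SRY-box factor *Sox17* and the chemokine receptor *Cxcr4*.

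With *Gapdh* as the reference, 6 of the 7 genes had a higher level in DE cells than in the matching control. *Mixl1* had a lower one, and each direction held in all 4 lines. With the mean of the other 6 genes as the reference, the mean levels of *Eomes*, *Gsc* and, at 0.999 times, *Gata6* came out lower. That reference is made of the other markers, so some log2 changes must come out negative unless all 7 genes change alike. It ranks the genes by their change and cannot test the directions seen with *Gapdh*. *Cxcr4* had by far the largest difference, 12.8 to 24.9 times within the lines, with 2 *Gata4* controls at the limit of detection taken as they stand. *Eomes*, *Gata6* and *Sox17* differed by 2.56 to 3.77 times, with little variation between the lines. Checked against these 7 markers, the samples labelled as DE cells were thus higher for 6 and lower for *Mixl1* relative to *Gapdh*, in 4 of 4 lines, and the groups overlapped for *Mixl1*, *Gsc* and *Gata4*. Each of these levels is a relative mRNA expression, the ratio of a gene to *Gapdh* scaled so that the 4 controls average 1.

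Every DE sample lay above every control for 4 genes, *Eomes*, *Gata6*, *Sox17* and *Cxcr4* (exact two-sided Mann–Whitney U test, p = 0.0286 each, the smallest value that 4 samples against 4 allow). That is 57.1% of the genes measured, and since the 7 genes are all that were tested there is no wider set of genes to set this share against. By list, the groups did not overlap for 1 of the 3 mesendoderm genes and for 3 of the 4 definitive endoderm genes, and each of these was higher in DE cells. The median of the mean log2 changes within the lines was 1.27 over the mesendoderm list, 1.88 over the definitive endoderm list and 1.66 over all 7 genes. Benjamini-Hochberg adjustment over the 7 exact tests gave 0.05 for these 4 genes, and so 0 genes lay under 0.05 after it, against 4 at an unadjusted p under 0.05. When limma was fitted to log2 ratios with each DE sample set against its own control (the line as a factor), 7 of 7 genes (100%) had an adjusted p under 0.05. Of the 7, 6 were higher (85.7%) and 1 was lower (14.3%). The test of the signs over 4 pairs cannot go below an exact p of 0.125.

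**Figure D1:**
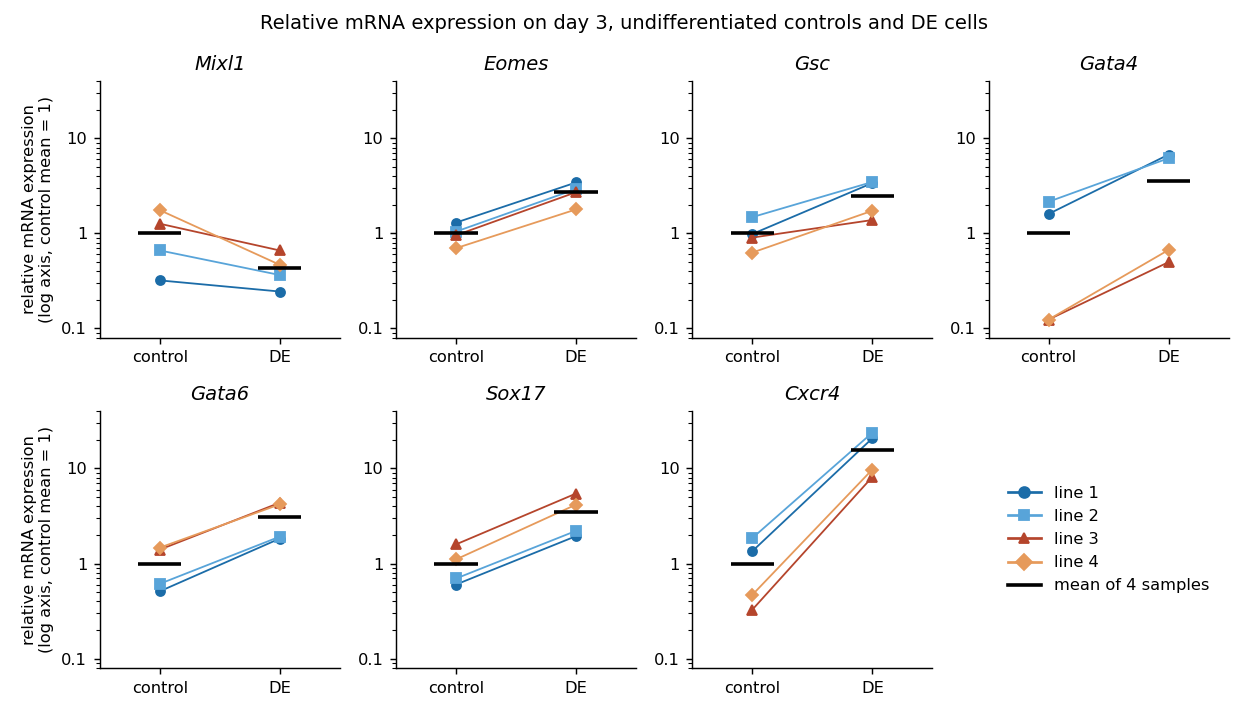
Relative mRNA expression (vertical log axis, ratio to *Gapdh* with the mean of the 4 controls set to 1) of each gene in undifferentiated controls and DE cells on day 3. Each point is a sample, thin lines join the samples of a line and black bars are the means of 4 samples. *Cxcr4* runs from 0.328 to 1.85 in controls and from 8.15 to 23.8 in DE cells, while the bars of *Gata4* lie between 2 sets of lines that start far apart.

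Before any division by *Gapdh*, the values are threshold cycles (Ct), the PCR cycle at which fluorescence crosses a set level, so that an earlier Ct stands for more template. The *Gapdh* Ct is not listed in the tables, but the Ct of a gene plus the log2 of its ratio gives it. Derived in this way, it was 22.00, 22.73, 22.39 and 22.39 cycles in controls, taken from line 1 to line 4, and 21.44, 21.59, 21.70 and 21.97 cycles in the DE cells of the same lines. *Gapdh*, a glycolytic enzyme used as the reference, was therefore earlier in DE cells of every line, by 0.561, 1.14, 0.691 and 0.421 cycles, and the groups did not overlap (exact two-sided permutation test of the mean difference of -0.70 cycles, p = 0.0286). Dividing by *Gapdh* makes every rise smaller and every fall larger than the raw Ct does, by a mean factor of 1.63. The derived value was the same for all genes of a sample to within 0.05 cycles in 55 of 56 values. The exception was *Gsc* in DE cells of line 3, whose ratio implies 21.64 cycles where the median over the genes of that sample is 21.71 cycles.

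*Mixl1*, an early homeobox gene of the primitive streak, was the only gene that was lower relative to *Gapdh*. Its relative mRNA expression was 0.320, 0.662, 1.26 and 1.75 in the controls of lines 1 to 4 and 0.245, 0.365, 0.661 and 0.467 in the DE cells. The controls differed among themselves by up to 5.47 times, and the DE samples all lay within or below their range, which left an overlap (p = 0.2, exact Mann–Whitney U test). Within the lines the DE cells had 0.764, 0.551, 0.523 and 0.266 times the level of their own control. With the line as a factor the log2 change was -1.02 ± 0.26 (SE, n = 4 pairs), with a 95% interval from -1.71 to -0.34 and a limma adjusted p of 0.0124. In raw Ct the lines did not share a direction. *Mixl1* was earlier in DE cells by 0.17 and 0.29 cycles in lines 1 and 2 and later by 0.25 and 1.49 cycles in lines 3 and 4. The log2 change relative to *Gapdh* is the raw change plus the shift of *Gapdh* described above. Its mean of -1.02 is thus made up of -0.32 from the Ct of *Mixl1* and -0.70 from that of *Gapdh*. In lines 1 and 2 the Ct of *Mixl1* was not later, so the lower ratio there appears only on division by *Gapdh*. Raw Ct also depends on how much template went into each reaction, which was not examined here. Line 4 had the largest fall of *Mixl1* and the smallest shift of *Gapdh*, 0.421 cycles. What the *Gapdh* shift reflects was not tested.

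*Eomes*, a T-box factor needed for the specification of endoderm, had a relative mRNA expression of 1.30, 1.05, 0.956 and 0.699 in the controls of lines 1 to 4. In the DE cells it was 3.43, 2.93, 2.71 and 1.79. The lowest DE sample, that of line 4, was 1.38 times the highest control, that of line 1. The order of the lines was the same in both groups, and the changes within the lines were nearly equal, 2.64, 2.80, 2.84 and 2.56 times. On the log2 scale these changes had an SD of 0.071, against 0.37 between the 4 controls, and of the 7 genes *Eomes* had the smallest SD of its change. With the line as a factor the log2 change was 1.44 ± 0.07 (SE, n = 4 pairs, limma adjusted p = 1.67e-05). The signal itself was late, with Ct values from 34.18 to 35.46 cycles in controls and from 32.21 to 33.69 cycles in DE cells.

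For *Gsc*, a homeobox gene of the organizer region of the embryo, the controls of lines 1 to 4 had 0.986, 1.48, 0.903 and 0.628, and the DE cells 3.38, 3.47, 1.38 and 1.73. A single pair of samples made the groups overlap, the DE cells of line 3 with 1.38 and the control of line 2 with 1.48 (exact Mann–Whitney U test, p = 0.0571). Without line 2, or without line 3, the groups did not overlap. Line 3 also had the smallest change, 1.53 times its control, against 3.43, 2.34 and 2.75 times in lines 1, 2 and 4. The log2 change with the line as a factor was 1.27 ± 0.21 (SE, n = 4 pairs), with a 95% interval from 0.73 to 1.81 and a limma adjusted p of 0.00227. In raw Ct, from 31.28 to 32.32 cycles in controls and from 28.93 to 30.43 cycles in DE cells, the groups did not overlap. The Ct of *Gsc* was 30.43 cycles in the DE cells of both line 3 and line 4.

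*Gata4*, a zinc finger factor of endoderm and heart, differed most between the lines. Controls of lines 1 and 2 crossed the threshold at 35.92 and 36.23 cycles, and both controls of lines 3 and 4 at 40 cycles. In DE cells it was 33.29 and 33.57 cycles in lines 1 and 2 and 37.31 and 37.15 cycles in lines 3 and 4. The highest Ct in the tables is 40, although the labels give 45 cycles of PCR, so the 2 values at 40 are treated as the limit of detection. In lines 3 and 4, *Gata4* was thus at the limit in undifferentiated cells and was measured, late, in DE cells. The relative mRNA expression was 1.60, 2.15, 0.124 and 0.124 in controls and 6.74, 6.17, 0.499 and 0.670 in DE cells. The highest control was above the DE cells of lines 3 and 4, and the Mann–Whitney U test gave an exact p of 0.314. Within lines 1 and 2 the DE cells had 4.21 and 2.87 times the level of the control, and within lines 3 and 4 they had at least 4.02 and at least 5.40 times. With the line as a factor, and with the 2 values at the limit taken as they stand, the log2 change was 2.01 ± 0.16 (SE, n = 4 pairs, limma adjusted p = 0.000119).

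*Gata6*, the other GATA factor and one of the earliest regulators of endoderm, gave much earlier Ct values, and its level was higher in lines 3 and 4 than in lines 1 and 2. Its Ct was 24.46, 24.93, 23.40 and 23.33 cycles in the controls and 22.06, 22.14, 21.08 and 21.40 cycles in the DE cells of lines 1 to 4. In DE cells of lines 3 and 4 it was earlier than the derived *Gapdh* Ct of the same sample, and the ratio to *Gapdh* was 1.55 and 1.49. The relative mRNA expression was 0.511, 0.613, 1.40 and 1.47 in controls and 1.83, 1.92, 4.37 and 4.20 in DE cells. The gap between the groups was narrow, since the DE cells of line 1 had 1.25 times the level of the control of line 4. Within the lines the change was 3.59, 3.14, 3.12 and 2.85 times, and the log2 change with the line as a factor was 1.66 ± 0.08 (SE, n = 4 pairs, limma adjusted p = 1.67e-05).

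*Sox17*, a transcription factor that is a defining marker of definitive endoderm, had 0.602, 0.697, 1.59 and 1.11 in the controls of lines 1 to 4 and 1.95, 2.21, 5.46 and 4.17 in the DE cells. The lowest DE sample was 1.22 times the highest control, the narrowest gap of the 4 genes whose groups did not overlap. Within the lines the change was 3.23, 3.17, 3.42 and 3.77 times. Its log2 SD of 0.11 between lines was small beside that of 0.64 between the controls. With the line as a factor the log2 change was 1.76 ± 0.08 (SE, n = 4 pairs, limma adjusted p = 1.67e-05). The Ct was 33.47, 33.99, 32.46 and 32.99 cycles in controls, so that *Sox17* transcript was already detected in every undifferentiated sample, and 31.22, 31.19, 30.00 and 30.65 cycles in DE cells.

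*Cxcr4* encodes the receptor of the chemokine Cxcl12 and is used as a surface marker of definitive endoderm. It had 1.35, 1.85, 0.328 and 0.469 in the controls of lines 1 to 4 and 20.8, 23.8, 8.15 and 9.76 in the DE cells. The lowest DE sample was 4.40 times the highest control, the widest gap between the groups of any gene measured. In raw Ct it moved from 30.19, 30.47, 32.63 and 32.11 cycles to 25.69, 25.64, 27.31 and 27.31 cycles. The change was larger in the lines that started lower, 24.9 and 20.8 times in lines 3 and 4 against 15.4 and 12.8 times in lines 1 and 2, and this difference between lines was not tested. With the line as a factor the log2 change was 4.16 ± 0.18 (SE, n = 4 pairs), with a 95% interval from 3.69 to 4.64 and a limma adjusted p of 1.67e-05.

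**Figure D2:**
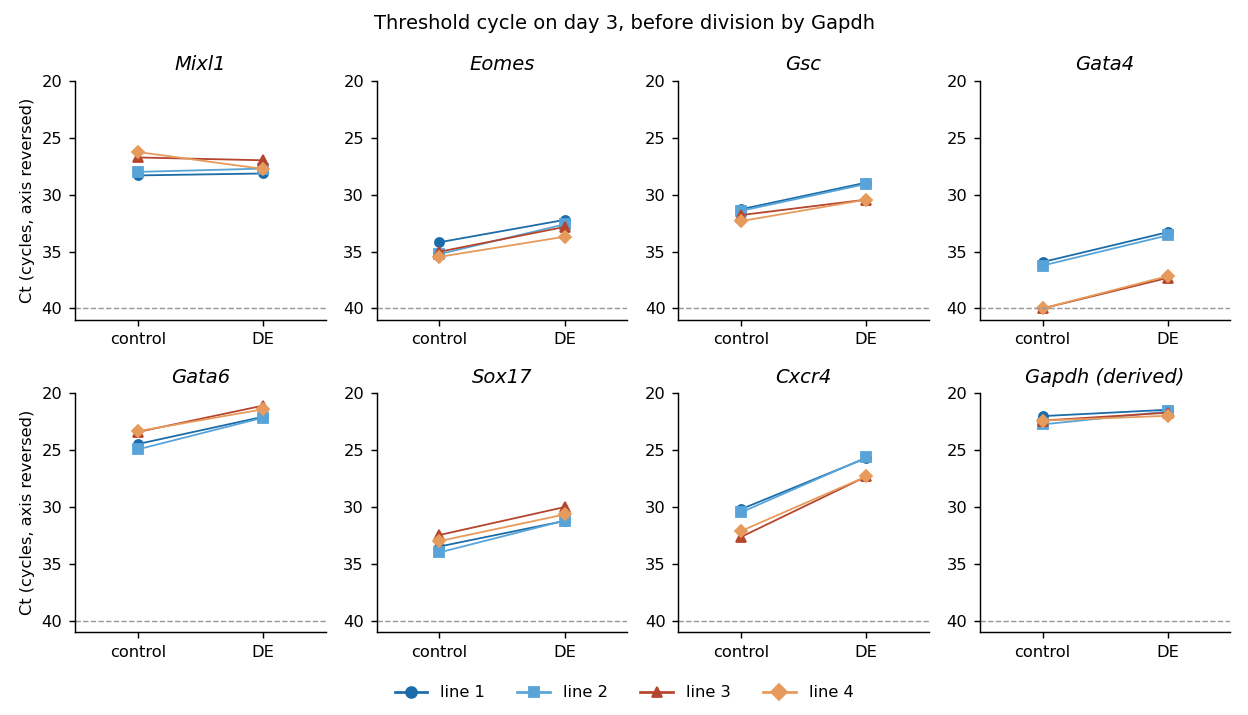
Threshold cycle (vertical axis in cycles, reversed so that more template is higher) of each gene and of the derived *Gapdh* in controls and DE cells on day 3. Points are samples, lines join the samples of a line and the dashed line marks 40 cycles, where the *Gata4* controls of lines 3 and 4 lie. *Mixl1* runs nearly level in lines 1 to 3 and downward in line 4, while the other 6 genes run upward in every line.

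A comparison of the genes with each other within a line does not depend on *Gapdh*, apart from the small deviation of *Gsc* in line 3. In each of the 4 lines *Cxcr4* ranked first by its change and *Mixl1* last. The log2 change of *Cxcr4* exceeded that of *Gata4* by 1.87 to 2.63, that of *Sox17* by 2.02 to 2.86 and that of *Gata6* by 2.03 to 3.00. In lines 3 and 4 the change of *Gata4* is a lower bound, because its controls lay at the limit of detection. The excess of *Cxcr4* over *Gata4* is thus an upper bound in those lines. Its rank above *Gata4*, and the order of all pairs that hold *Gata4*, take the values at the limit as they stand. That of *Eomes* exceeded that of *Mixl1* by 1.79 to 3.26, although both are mesendoderm genes. Of the 21 pairs of genes, 16 had the same order in all 4 lines. An exact sign-flip test over 4 pairs gave p = 0.125 for each of these, the smallest it allows, and 0.164 after Benjamini-Hochberg adjustment over the 21 pairs, so 0 of the 21 differences passed 0.05, and 0 would have without the adjustment.

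Of the 5 pairs of genes with a mixed order, 3 lay within the definitive endoderm list. The change of *Gata4* minus that of *Gata6* ranged from -0.13 to 0.92, that of *Gata4* minus *Sox17* from -0.14 to 0.52, and that of *Sox17* minus *Gata6* from -0.15 to 0.40 on the log2 scale. The upper ends that involve *Gata4* come from line 4, whose control was at the limit of detection, and are lower bounds. The remaining 2 were *Eomes* with *Gsc*, from -0.38 to 0.89, and *Sox17* with *Gsc*, from -0.09 to 1.16. These ranges include 0, and with 4 lines neither equal nor unequal changes of these genes can be shown.

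**Figure D3:**
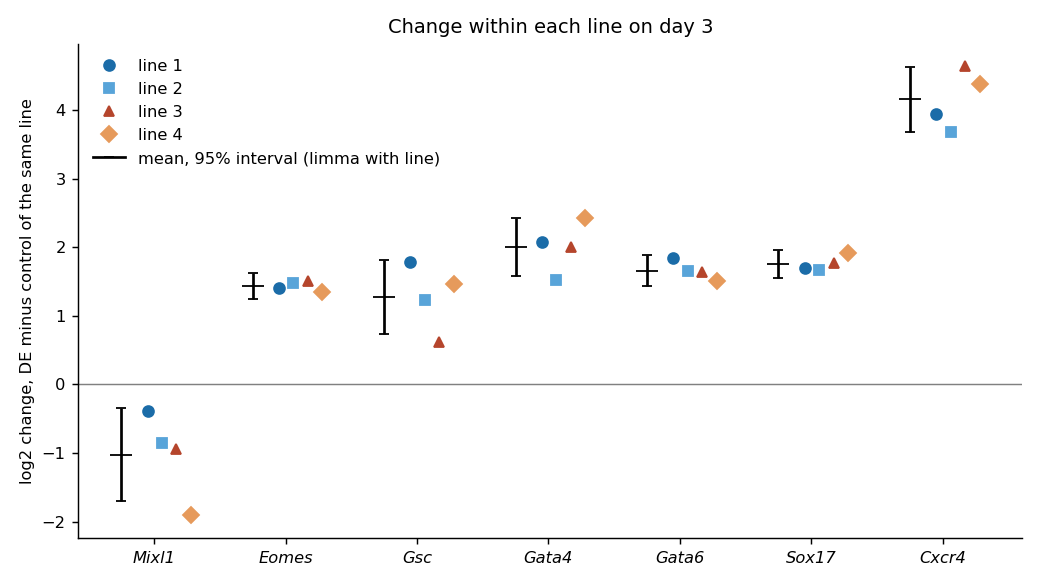
Change of each gene within each line (vertical axis, log2 ratio to *Gapdh* in DE cells minus that in the control of the same line). Coloured points are the 4 lines, and black bars with whiskers are the mean and its 95% interval from limma with the line as a factor. *Eomes*, *Gata6* and *Sox17* lie close together in all lines, *Gsc* and *Mixl1* spread widely, and *Cxcr4* lies between 3.68 and 4.64.

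The lines resembled each other in pairs. Over the 7 genes, the mean absolute difference in log2 ratio between the controls of lines 1 and 2 was 0.47, and between those of lines 3 and 4 it was 0.37. Every other pair of controls differed by 1.54 to 1.66. Among DE cells, lines 1 and 2 differed by 0.20 and lines 3 and 4 by 0.37, and the other pairs by 1.23 to 1.56. The difference between DE cells and the control of the same line, 1.73 to 2.14, lay above that between lines of different pairs within a group. Across the groups, only the control of line 3 was nearest to the DE cells of its own line. The control of line 2, for example, differed by 1.56 from the DE cells of line 4 and by 1.73 from those of line 2. Identical Ct values in lines 3 and 4 occurred for *Gsc* and *Cxcr4* in DE cells, and lines 1 and 2 shared none. The Ct of *Gata4* was also identical in the controls of lines 3 and 4, but both values lie at the limit of 40 cycles. The derived *Gapdh* Ct of these 2 controls was 22.39 cycles in both, to 2 decimals. The labels give 4 separate lines, and which lines were extracted or run together is not given in the sources used here. Whether the lines of a pair are independent samples was not tested. Were they not, every p-value and SE given here for 4 lines would be too small and every interval too narrow, since they would rest on 2 independent samples a group.

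**Figure D4:**
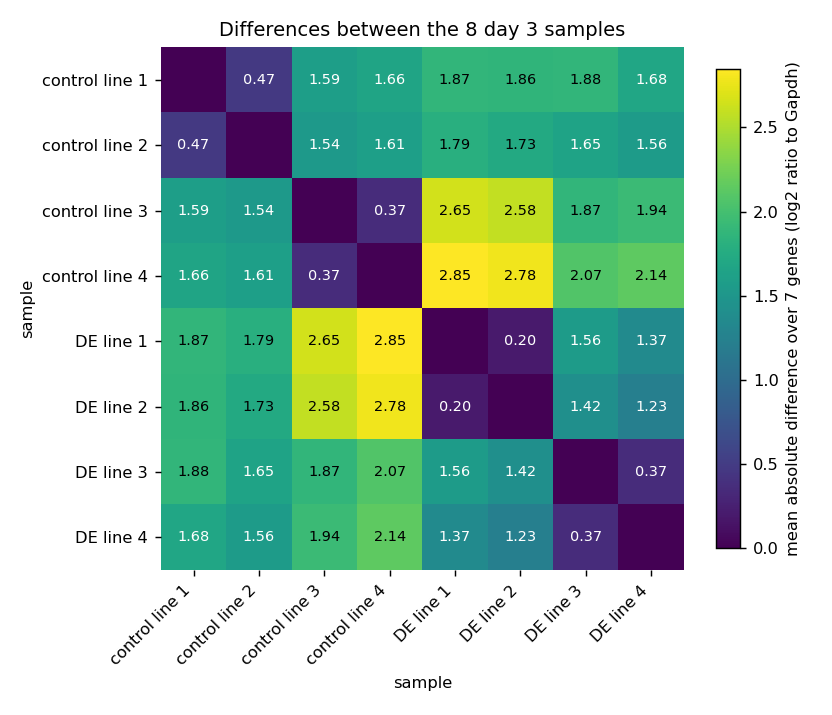
Mean absolute difference between each pair of the 8 day 3 samples (both axes), over the 7 genes, in log2 ratio to *Gapdh*, given by the colour scale and the printed value. The smallest values off the diagonal lie between lines 1 and 2 and between lines 3 and 4 of the same group, at 0.20 to 0.47.

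This likeness in pairs showed in every gene and was kept through the induction. For 7 of 7 genes both lines of one pair lay above both lines of the other in controls, and for the same 7 genes in the same direction in DE cells. *Mixl1*, *Gata6* and *Sox17* were the 3 genes higher in lines 3 and 4, and *Eomes*, *Gsc*, *Gata4* and *Cxcr4* the 4 that were lower. In controls, lines 3 and 4 had 2.57 times the *Gata6* level of lines 1 and 2, and in DE cells 2.28 times. For *Sox17* these values were 2.05 and 2.30 times, and for *Cxcr4* 0.248 and 0.401 times. The largest contrast was in *Gata4*, with 0.0669 times in controls, where lines 3 and 4 were at the limit of detection, and 0.0897 times in DE cells. The division of the lines was seen in these values and carries no test.

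Because of this likeness, the comparison was also made with lines 1 and 2 averaged to a single value and lines 3 and 4 to another. *Eomes*, *Gsc*, *Gata6*, *Sox17* and *Cxcr4*, which makes 5 genes, were then higher in DE cells without overlap, but with 2 values against 2 the smallest exact p is 0.333. In lines 1 and 2 alone, 6 genes were higher in both DE samples than in both controls, and *Mixl1* overlapped. In lines 3 and 4 alone, the same 6 genes were higher and *Mixl1* was lower, without overlap. The *Mixl1* change was -0.62 on the log2 scale in lines 1 and 2 and -1.42 in lines 3 and 4.

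How large the changes appear depends on the reference. Without any reference gene, the mean Ct within the lines was earlier in DE cells by 2.14 cycles for *Eomes*, 1.99 for *Gsc*, 2.71 for *Gata4*, 2.36 for *Gata6*, 2.46 for *Sox17* and 4.86 for *Cxcr4*, and each of these was earlier in 4 of 4 lines. For *Mixl1* it was later by 0.32 cycles, and later in 2 of 4 lines. Against the mean Ct of the other 6 genes, *Cxcr4* was still higher and *Mixl1* lower without overlap, with relative levels of 6.87 and 0.0972. The direction then turned for *Eomes* and *Gsc*, with 0.856 and 0.790. *Gata6* was nearly unchanged at 0.999, with a mean log2 change within the lines of 0.05, and *Sox17* had 1.17 with overlapping groups. This reference consists of genes that themselves were mostly higher in DE cells relative to *Gapdh*, and so it shows which genes changed more or less than the rest of the 7.

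**Figure D5:**
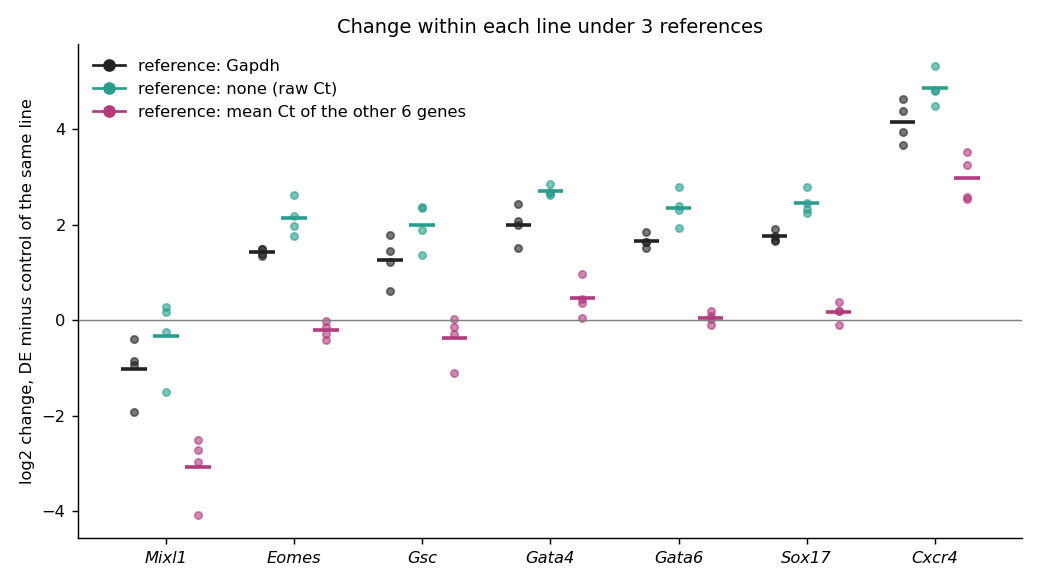
Change within each line (vertical axis, log2, DE cells minus control of the same line) with *Gapdh* as the reference, with none, and with the mean Ct of the other 6 genes. Points are the 4 lines and bars their mean. *Cxcr4* stays above 0 and the *Mixl1* mean below 0 under all 3, whereas with the other genes as the reference the means of *Eomes* and *Gsc* lie below 0, with *Gsc* of line 1 at 0.03, and *Gata6* lies at about 0.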

How the data were processed

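The data were RT-qPCR values of 4 control and 4 DE samples of day 3. RNA was extracted with TRIzol and Direct-zol, reverse transcribed with ImProm-II and amplified with SYBR Green. The authors deposited the Ct of each gene in cycles, to 2 decimals, and the linear ratio of each gene to *Gapdh* (2 to the power of the negative Ct difference), to 7 decimals. Their fold changes hold their own comparisons and were not used. Replicate wells, amplification efficiencies and thresholds are not given in the sources used here, and neither is a genome build. The number of lines limits the precision. A ratio takes the template to grow 2-fold per cycle, so an assay of lower efficiency overstates its change.

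All 7 genes with day 3 values are named. The genes, lists and tests were chosen with earlier results of these data known. Following the study's statistics, the Mann–Whitney U test (two-sided, exact by enumeration, threshold 0.05) was run for each gene on the deposited ratios. Samples of a line share a donor dog and are therefore paired, and across genes the deviation of each DE sample from its group mean correlated with that of its own control at r = 0.937 to 0.986 in the 4 pairs. The correlation did not single out the line, since between lines 1 and 2, and between lines 3 and 4, it was 0.896 to 0.953. limma 3.58.1 (R 4.3.3), run both with the line as a factor and without it, was fitted to the log2 ratios of the 7 genes with Benjamini-Hochberg adjustment, so its shared estimate of the spread rests on 7 genes. Values at 40 cycles, to within 0.1, were taken as the limit of detection. Calculations used Python 3.11.15, numpy 2.4.6 and scipy 1.17.1, with plots from matplotlib 3.10.9. The functions were checked on simulated data with many more genes, independent lines and no values at a limit. That check therefore does not vouch for the p-values given here. Alternatives were the tests, the pairing, the reference, averages, filters on late signals and each line left out. The averaging of lines alike in pairs, those pairs alone, a common *Gapdh* Ct per sample and the median in place of the mean over genes for the derived *Gapdh* were added after seeing the data.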

Additional observations from a re-analysis of the deposited data

How the results depend on the processing

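The number of genes whose groups did not overlap, 4 in the comparison as reported, was 0 after Benjamini-Hochberg adjustment over the 7 exact tests. The adjusted p of the 4 genes was 0.05, at the threshold and not under it. With 4 of 7 genes at the smallest exact p it could not be lower, so this count could only be 0. Counted in other ways, 7 genes had a limma adjusted p under 0.05 with the replicate block (the line as a factor), and 7 had the same direction in 4 of 4 paired lines. Both counts take in all 7 genes and so hold the 4. Groups that do not overlap share a direction in every pair by definition. In lines 3 and 4 alone the number without overlap was 7. Measured against the mean Ct of the 6 remaining genes it was 2, *Cxcr4* and *Mixl1*. With each line left out in turn it was 4 to 5, with the added gene being *Mixl1* without line 1 and *Gsc* without line 2 or 3. Leaving lines out cannot undo a separation, so these counts, and that of lines 3 and 4 alone, could not fall below 4. They count separation only, since with 3 samples against 3 the smallest exact p of the Mann–Whitney U test is 0.1. The permutation test (p under 0.05) gave 4, but with 4 samples against 4 it passes only where the groups do not overlap. Both filters on late signals gave 4, since they remove only *Gata4*, whose groups overlapped. Neither of these counts could differ from 4. A common *Gapdh* Ct, nearly the same as the derived value of each gene, also gave 4. Raw Ct and the lines averaged in pairs gave 5, and averaging cannot undo a separation. By limma without the line, 5 had an adjusted p under 0.05. The earlier *Gapdh* Ct of DE cells, by a difference of -0.70 cycles, had an exact p of 0.125 with the paired sign-flip test, the smallest it allows, and ranged from -0.80 to -0.56 cycles with a line left out. The mean of the other 6 genes as the reference turned the relative expression of *Eomes* to 0.856, of *Gsc* to 0.790 and of *Gata6* to 0.999, and the mean log2 change within the lines to -0.21 for *Eomes* and -0.38 for *Gsc*. These were 5 of 77 values for single genes under the alternatives, and the other 72 kept their direction. The 0.999 of *Gata6* counts among the 5 only by lying just under 1. Many of the 72 could not turn, because each gene had the same direction in 4 of 4 lines. Geometric means, limma with the line and each line left out then keep that direction by construction. The 72 are therefore no measure of how firm the directions are, and all 5 that turned came from this 1 reference. Against it some genes must come out lower unless all 7 change alike, so the 5 are no such measure either. Without a reference *Mixl1* no longer shared its direction across the lines. Late signals limit *Gata4* most, since 2 of its 4 control values lie at the limit of detection.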
